A study of Mus musculus with 12 samples.

Results

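The metallothionein and iron handling genes are a set of 10 genes: Mt1 and Mt2, Ftl1 and Fth1, Tfrc, Slc40a1 and Slc11a2, and Hamp, Ireb2 and Aco1. They were taken by symbol from the platform annotation, with the brightest probe for each gene. Of the 10, 9 had a probe of their own, among 18069 genes with such a probe on the array, and 7 had enough values to be tested. The study measured hearts of Balb/c mice on 12 one-colour arrays, 3 in each of 4 groups. The groups were DMA at 24 h, DMSO at 24 h, DMA at 48 h and DMSO at 48 h. Mice of the DMA groups received 30 mg per kg body weight by gavage, and mice of the DMSO groups received the vehicle. The labels do not expand the name DMA, and they give no age or sex. Each group's hearts were pooled for RNA isolation according to the design text, while the labels call the 3 arrays of a group biological replicates, so the p-values measure the spread between these samples, which may be technical. All values below are log2 intensities.

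Metallothioneins are small cysteine-rich proteins that bind zinc and copper, and their genes are switched on by metals through the factor Mtf1, which binds metal response elements (MREs) in their promoters. Iron enters most cells as transferrin through the transferrin receptor Tfrc, crosses the endosome membrane through Slc11a2, is stored in ferritin made of the chains Ftl1 and Fth1, and leaves through the exporter Slc40a1 (ferroportin). Aco1 and Ireb2 encode the iron regulatory proteins, which bind messenger RNAs of this group when iron is scarce, and Hamp encodes hepcidin, the hormone that removes ferroportin from the cell surface. Heart muscle needs iron for its haem and iron-sulphur proteins and is damaged by free iron.

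Mt2 and Mt1 are neighbours on mouse chromosome 8, in a row with Mt4 and Mt3. Their MRE cores are shown because the response of these genes to metals is known to run through such elements. The core was searched as TGCACNC or TGCGCNC on both strands, in the 250 bases before each gene start in the RefSeq table of build GRCm38.p6. Capitals mark the cores. For Mt1 only the site with its flanks is printed, because the RefSeq gene record of Mt1 begins inside the window.
Mt1, GRCm38.p6, chr8:94179056-94179082, plus strand: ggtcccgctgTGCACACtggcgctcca
Mt2, GRCm38.p6, chr8:94172368-94172617, plus strand: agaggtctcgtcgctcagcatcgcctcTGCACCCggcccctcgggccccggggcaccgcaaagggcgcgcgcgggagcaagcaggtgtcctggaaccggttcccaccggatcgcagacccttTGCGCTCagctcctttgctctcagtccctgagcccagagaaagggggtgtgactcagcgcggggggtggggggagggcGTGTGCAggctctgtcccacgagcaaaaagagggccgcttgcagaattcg
The Mt2 window held 3 cores, the last of them (GTGTGCA) on the opposite strand, and the Mt1 window held 1. Bases after the end of a window were not searched. The counts therefore depend on the annotated start and do not compare the whole promoters of Mt1 and Mt2. Of 32851 such windows in the table, 21.4% held at least 1 core and 1.26% at least 3. For 8 of the 10 genes a window was found. Tfrc had 2 cores in 1 of its windows, a count reached by 5.17% of all windows, and 5 genes (Aco1, Fth1, Ftl1, Hamp and Ireb2) had none. The core of the antioxidant response element, TGACNNNGC, was found in the Mt2 window, outside the MRE cores, and in no other window of the set; 10.2% of all windows hold it. These matches describe letters in a window and do not show that a factor binds there. No windows were found for Slc40a1 and Slc11a2.

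A few facts of the arrays bear on every value. Array medians were 6.35 or 6.36 at 48 h, against 6.03 or 6.04 at 24 h, so each time appears to have been scaled alone and levels were not tested across times. One array stood apart, DMA 24 h replicate 3: its correlation with its time's other arrays, taken as their median, was 0.742, and this ran from 0.927 to 0.963 elsewhere. DMA 48 h replicate 3 also deviated from its time's arrays, by a median of 0.35 among the lowest probe numbers and -0.95 among the highest. Missing values numbered 322 to 3997 on an array. Probes with 6 to 11 missing values were bright where they were measured, with a median level of 13.84 and 85% of them above 12, against 4.3% of the probes with no missing value. As a check of the tissue, Ttn, the giant spring protein of the sarcomere, read 13.27 to 14.74 on 10 arrays and Mybpc3 11.08 to 14.56 on 3. The cardiac ryanodine receptor Ryr2 read 5.41 to 7.54 on 12 arrays, Myh6 read 3.84 to 9.82 on 12, and Actc1 had no value.

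Of the 10 genes, 3 could not be followed. Fth1, the ferritin heavy chain that oxidises iron for storage, had a value of its own probe on 1 array, 10.16 on DMA 24 h replicate 3. That is the array that stood apart, so the value gives no level of Fth1 in DMA hearts. A second probe, annotated to both 4921524J17Rik and Fth1, cannot be assigned to Fth1. Ireb2 had no value on any array. The Hamp probe is annotated to Hamp and its close copy Hamp2 together.

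Mt1 was near the top of the scale on all arrays with a value but 1. At 24 h it read 14.40 and 9.29 on DMA replicates 2 and 3, against 14.44 and 14.60 on DMSO replicates 2 and 3, with no value on either replicate 1. The groups did not overlap, and nearly all of the gap came from the 9.29 of DMA 24 h replicate 3. The difference was -2.68 (SE 1.34, limma adjusted p = 0.871), and without that array it was -0.12. The -0.12 rests on 1 DMA array. At 48 h it read 13.56, 14.57 and 14.53 on the DMA arrays, against 14.07 and 14.20 on DMSO replicates 1 and 3. These groups overlapped, and the difference was 0.08 (SE 1.23, adjusted p = 1). Apart from the 9.29, every Mt1 value lay within 1.34 of the highest value of its array, so the probe had limited room to read higher.

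Mt2, the second main metallothionein of mouse tissues, was measured on all arrays. At 24 h it read 10.33, 9.50 and 5.68 on the DMA arrays, replicates 1 to 3, against 10.11, 10 and 9.57 on the DMSO arrays. DMA replicate 3 was again the low array, and the other 5 lay within 9.50 to 10.33. The difference was -1.39 (SE 1.13, adjusted p = 0.871), and it was 0.02 without that array. At 48 h Mt2 read 8.23, 10.45 and 7.64 on the DMA arrays, against 7.76, 10.48 and 9.13 on the DMSO arrays. Replicate 2 was the highest array in both groups, and the 3 pair means spanned 2.47, more than the largest difference within a pair, 1.49. The 48 h difference was -0.35 (SE 1.13, adjusted p = 1).

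**Figure D1:**
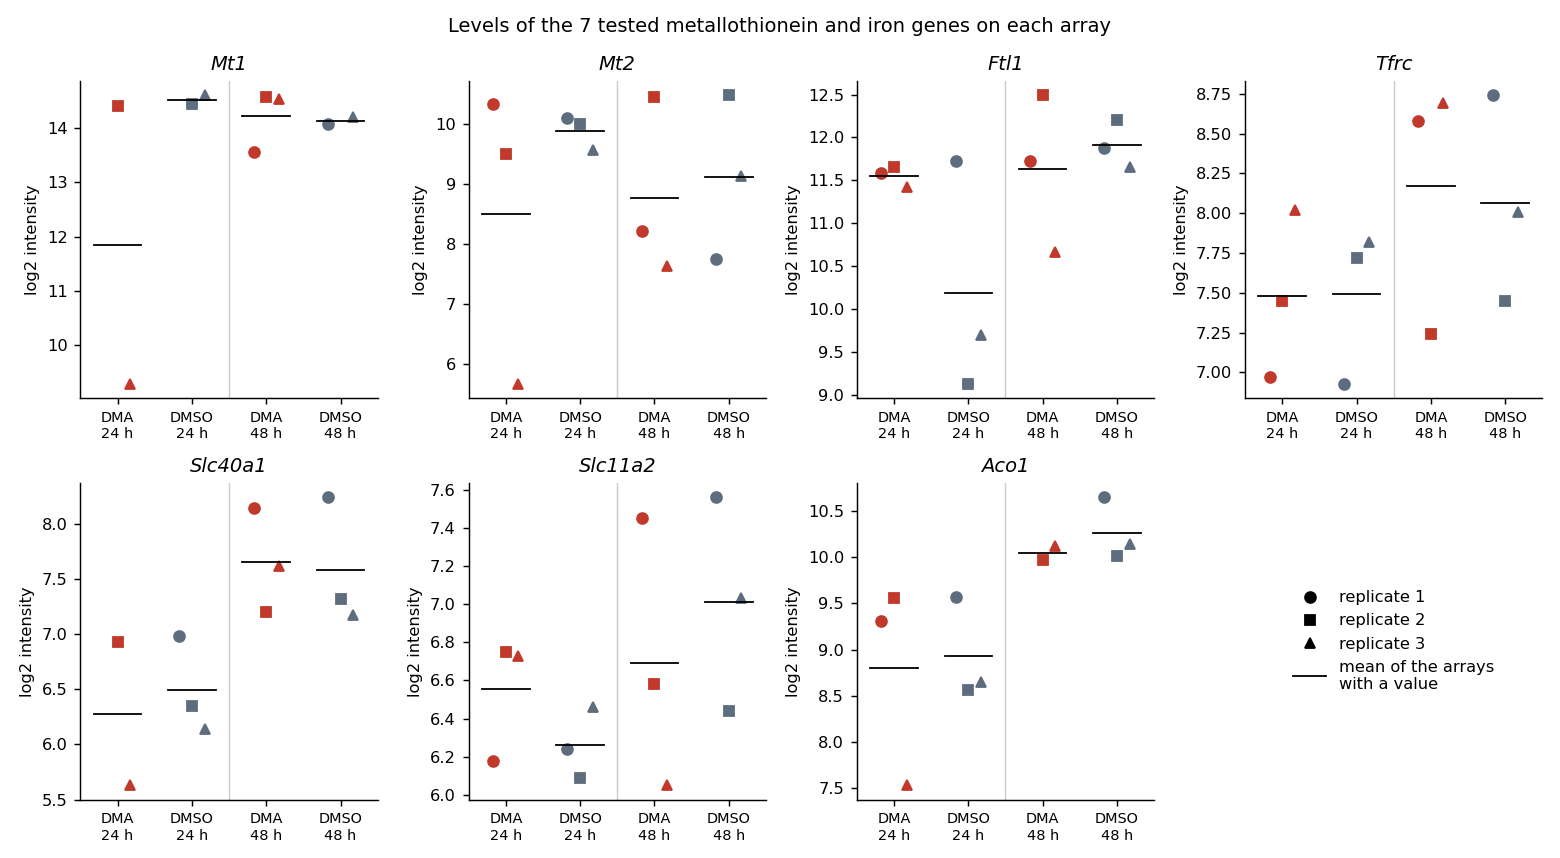
Log2 intensity (vertical axis) of the 7 tested genes on each array, by group; symbols give the replicate number and the line the mean of the arrays with a value. Mt1 and Mt2 lie at 9.29 and 5.68 on DMA 24 h replicate 3, and Ftl1 at 9.13 and 9.70 on DMSO 24 h replicates 2 and 3.

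Ftl1, the ferritin light chain, had the largest positive difference of the tested genes at 24 h. It read 11.58, 11.66 and 11.42 on the DMA arrays, replicates 1 to 3, against 11.72, 9.13 and 9.70 on the DMSO arrays. The DMA arrays lay close together and the groups overlapped, since DMSO replicate 1 was the highest of the 6. The difference was 1.37 (SE 0.632, 95% interval -0.01 to 2.76, adjusted p = 0.871), and it was 0.85 without DMSO 24 h replicate 2 and 2.14 without DMSO 24 h replicate 1. At 48 h Ftl1 read 11.72, 12.49 and 10.67 on the DMA arrays, against 11.88, 12.20 and 11.65 on the DMSO arrays. DMA replicate 3 was the lowest of these 6 arrays. The 48 h difference was -0.29 (SE 0.632, adjusted p = 1), and 0.19 without DMA 48 h replicate 3.

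Tfrc, the receptor that brings transferrin iron into cells, was nearly equal in DMA and DMSO hearts at both times. At 24 h it read 6.97, 7.45 and 8.02 on the DMA arrays, against 6.93, 7.72 and 7.82 on the DMSO arrays. Its 24 h difference was -0.01 (SE 0.51, 95% interval -1.13 to 1.11, adjusted p = 0.997). At 48 h it read 8.58, 7.24 and 8.69 on the DMA arrays, against 8.74, 7.45 and 8.01 on the DMSO arrays, a difference of 0.10 (SE 0.51, adjusted p = 1). Same-numbered arrays lay close together: at 24 h the pair means spanned 0.971 while the largest difference within a pair was 0.272, and at 48 h these were 1.31 and 0.68. With the replicate number as a block the SE of Tfrc was 0.321 at both times.

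Slc40a1, the ferroportin gene and the main route of iron out of cells, had a value on 11 arrays. At 24 h it read 6.93 and 5.63 on DMA replicates 2 and 3, against 6.98, 6.35 and 6.14 on the DMSO arrays. Its 24 h difference was -0.21 (SE 0.537, adjusted p = 0.938), and it was 0.44 without DMA 24 h replicate 3, which was the lowest array. The 0.44 rests on 1 DMA array. At 48 h Slc40a1 read 8.14, 7.20 and 7.62 on the DMA arrays, against 8.24, 7.32 and 7.17 on the DMSO arrays. The groups covered nearly the same range, with a difference of 0.08 (SE 0.48, 95% interval -0.99 to 1.15, adjusted p = 1). Macrophages, which export iron from aged red cells, use the same gene; the mean level of 8 tested macrophage markers was 8.07 to 9.80 on the DMA and 8.94 to 9.62 on the DMSO arrays of 24 h, and 8.88 to 10.31 and 9.76 to 9.90 at 48 h. Each of these means took only the markers with a value on the array, and Cd14 had a value on 2 DMSO arrays of 24 h. In bulk tissue, fewer cells of a type and less RNA per cell cannot be told apart.

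Slc11a2, the divalent metal transporter that moves iron out of the endosome, differed by less than its standard error at both times. On the 24 h DMA arrays it read 6.18, 6.75 and 6.73, against 6.24, 6.09 and 6.46 on the DMSO arrays. Its 24 h difference was 0.29 (SE 0.43, adjusted p = 0.897), with DMA replicate 1 inside the DMSO range and the other DMA arrays above it. On the 48 h DMA arrays it read 7.45, 6.58 and 6.05, against 7.56, 6.44 and 7.03 on the DMSO arrays, a difference of -0.32 (SE 0.43, adjusted p = 1). Omitting DMA replicate 3 of that time gave 0.00, and omitting DMA replicate 1 gave -0.70. Omitting DMSO replicate 1 gave -0.04, and omitting DMSO replicate 2 gave -0.60.

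Aco1, cytosolic aconitase and iron regulatory protein 1, was the only regulator of the set that could be tested. At 24 h it read 9.31, 9.56 and 7.53 on the DMA arrays, against 9.57, 8.56 and 8.65 on the DMSO arrays. DMA replicate 3 was the lowest array and the groups overlapped; the difference was -0.13 (SE 0.542, adjusted p = 0.964), and 0.51 without it. At 48 h Aco1 read 9.97 and 10.12 on DMA replicates 2 and 3, against 10.65, 10.01 and 10.14 on the DMSO arrays. The pairs with both values differed by -0.04 and -0.02, and the fitted difference, which also used DMSO replicate 1, was -0.22 (SE 0.606, adjusted p = 1).

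The probe shared by Hamp and Hamp2 was measured on all arrays and is given for the probe alone. It read 8.91, 10.53 and 12.20 on the 24 h DMA arrays, against 9.17, 10.78 and 11.28 on the 24 h DMSO arrays. At 48 h it read 9.23, 9.22 and 10.86 on the DMA arrays, against 9.28, 10.12 and 9.30 on the DMSO arrays. DMA replicate 3 was the highest array at each time, and the groups overlapped at both. The probe of 4921524J17Rik and Fth1 read 6.63 to 7.66 on the DMA and 6.29 to 8.0 on 2 DMSO arrays of 24 h, and 7.99 to 8.91 and 8.06 to 8.70 at 48 h.

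Same-numbered DMA and DMSO arrays were also compared pair by pair. At 24 h 5 genes had values in all 3 pairs (Mt2, Ftl1, Tfrc, Slc11a2 and Aco1), and in 0 of them did the 3 pairs run 1 way, against 22.8% of all probes with 3 pairs. At 48 h 0 of 5 (Mt2, Ftl1, Tfrc, Slc40a1 and Slc11a2) did so, against 26.7%. The largest pair differences were those of pair 3 at 24 h for Mt1, -5.31, and Mt2, -3.88. Next came Ftl1, with 2.54 in pair 2 and 1.72 in pair 3 and -0.14 in pair 1. At 48 h the largest were those of pair 3 for Mt2, -1.49, for Ftl1, -0.99, and for Slc11a2, -0.98, each with DMA 48 h replicate 3 as the DMA array. That array deviated along the probe numbers. With such trends removed from all arrays, the fitted 48 h difference went from -0.35 to -0.03 for Mt2 and from -0.32 to -0.13 for Slc11a2. For Ftl1 it went the other way, from -0.29 to -0.38.

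**Figure D2:**
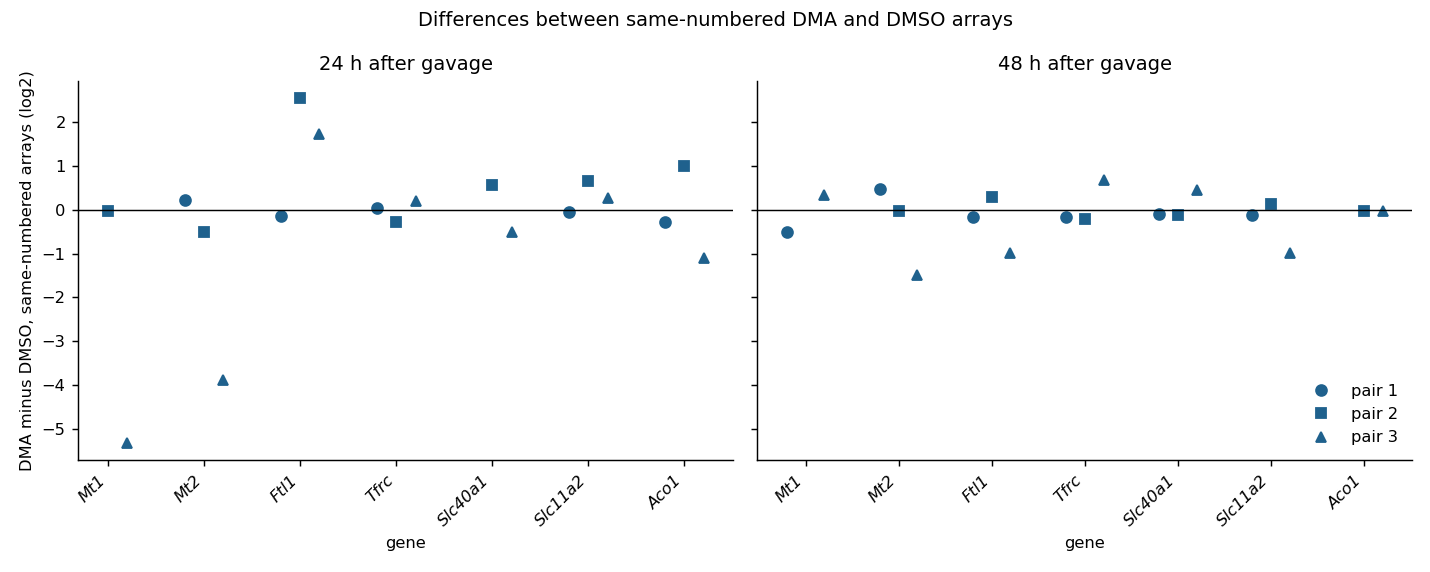
DMA minus DMSO in log2 intensity (vertical axis) for same-numbered arrays, by gene and time; each symbol is 1 pair, and a missing symbol means that an array of the pair had no value. Pair 3 carries the -5.31 of Mt1 and the -3.88 of Mt2 at 24 h, and at 48 h all pair differences lie between -1.49 and 0.68.

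In the fit across all 35401 probes, 0 of the 7 tested genes passed at either time. No probe of the array passed either: percent called was 0 at 24 h and 0 at 48 h at a limma adjusted p under 0.05. At an unadjusted p under 0.05 the set had 0 of 7 at each time, against 3.03% of all probes at 24 h and 1.40% at 48 h. The groups of 1 of 7 genes, Mt1, did not overlap at 24 h, against 7.99% of all probes, and 0 of 7 at 48 h, against 7.22%. Mt1 had 2 DMA and 2 DMSO values at 24 h, and groups with fewer values separate more easily. At 24 h 2 of the 7 differences were positive and 5 negative, with a median of -0.13 beside 0.09 over all 17611 genes tested. Without DMA 24 h replicate 3 the set had 5 positive and 2 negative differences and a median of 0.20, beside 0.00 over all genes. At 48 h there were 3 positive and 4 negative, with a median of -0.22 beside 0.01, and without DMA 48 h replicate 3 there were 4 and 3, with a median of 0.00 beside 0.01. The counts leave out Fth1 and Ireb2, which had too few values, and Hamp, so they do not describe the whole set.

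**Figure D3:**
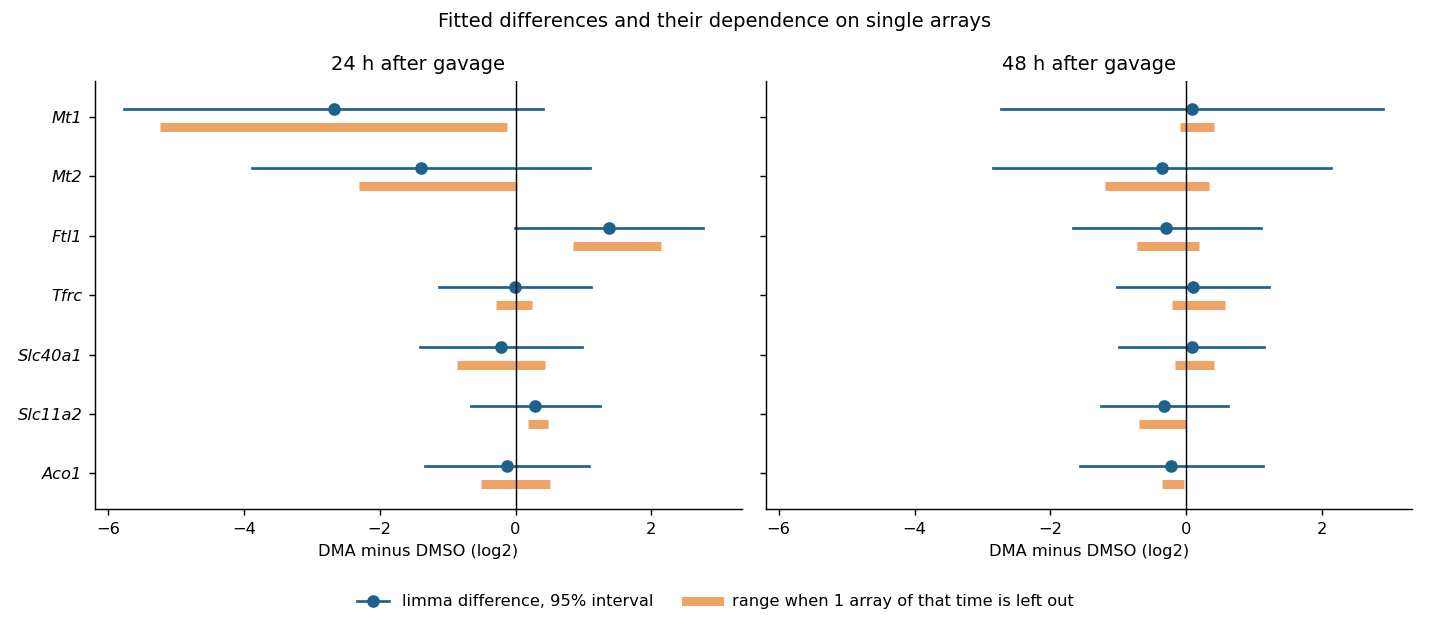
DMA minus DMSO in log2 intensity (horizontal axis) from the limma fit on 12 arrays, with its 95% interval (point and thin line), and the range of the difference when 1 array of that time is left out (thick bar). All intervals include 0, and the widest bar is that of Mt1 at 24 h, from -5.23 to -0.12. Both ends of that bar rest on 1 DMA array.

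The DMA differences of 48 h were set against those of 24 h by a test of the difference between them. None of the 7 genes passed in limma, 0 at an unadjusted p under 0.05 as well, against 1.96% of all probes. Mt1 had the largest value, 2.76 (SE 1.82), followed by Ftl1 with -1.66 (SE 0.894) and Mt2 with 1.04 (SE 1.6), all with an adjusted p of 0.999. The values of Mt1 and Mt2 lean on DMA 24 h replicate 3. Without that array their 24 h differences were -0.12 and 0.02, beside 48 h differences of 0.08 and -0.35. The other 4 lay between -0.61 for Slc11a2 and 0.29 for Slc40a1. Levels at the 2 times carry the different scaling, a gap of about 0.32 in the medians, and are given here untested. Slc40a1 averaged 7.65 on DMA and 7.57 on DMSO arrays at 48 h, and 6.28 and 6.49 at 24 h. No 24 h array reached the lowest 48 h array in these values, but with each array's median subtracted the times overlapped, at 0.81 to 1.89 at 48 h and -0.41 to 0.95 at 24 h. Aco1 averaged 10 on DMA and 10.3 on DMSO arrays at 48 h, and 8.80 and 8.93 at 24 h. Less each array's median it lay at 3.61 to 4.30 at 48 h and 1.49 to 3.54 at 24 h, without overlap on either scale. The share of all probes that separate between the times was not computed, so these values do not set either gene apart. The order of the group means within a time was inside the spread of the arrays for both genes.

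Other genes of iron, haem and metal biology were followed in 6 lists with 86 genes, of which 72 were tested. Of the 72 genes 0 passed at either time. At an unadjusted limma p under 0.05 there was 1 at each time, Slc22a17 at 24 h and Ftmt at 48 h, against 3.03% and 1.40% of all probes, a share that the 72 genes did not exceed. In all, 35 differences were positive and 37 negative at 24 h, with a median of -0.02, and 29 and 43 at 48 h, with a median of -0.08. Without DMA 24 h replicate 3 the counts at 24 h were 44 and 28 (median 0.11), beside 8844 and 8767 over all genes tested. Without DMA 48 h replicate 3 the counts at 48 h were 37 and 35 (median 0.01), beside 8953 and 8658 over all genes tested. At 24 h the groups did not overlap for 3 of the 72 genes with DMA higher (Ppox, Slc22a17 and Urod) and for 1 with DMA lower (Atox1), against 4.51% and 3.48% of all probes. At 48 h this held for 3 with DMA higher (Bmp2, Flvcr2 and Ftmt) and 4 with DMA lower (Glrx5, Isca2, Mtf1 and Steap4), against 4.42% and 2.79%.

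In the list of iron uptake and export partners, 8 of 14 differences were positive at 24 h (median 0.27) and 6 at 48 h (median -0.07). Slc22a17, a receptor for the iron carrier lipocalin, averaged 6.99 ± 0.115 on DMA and 6.36 ± 0.174 on DMSO arrays of 24 h (SD, n = 3 each), a difference of 0.64 (SE 0.285, adjusted p = 0.871) with no overlap. Cp, the plasma ferroxidase ceruloplasmin, differed by 1.24 (SE 0.605) at 24 h, or 0.58 without DMSO 24 h replicate 3, and by -0.67 (SE 0.605) at 48 h, or -0.16 without DMA 48 h replicate 3. On the negative side at 24 h were Tfr2, the second transferrin receptor, at -0.88 (SE 0.429) and the metal importer Slc39a14 at -0.78 (SE 0.61), which were -0.39 and -0.09 without DMA 24 h replicate 3. At 48 h Steap1, of the metalloreductase family, differed by -1.26 (SE 0.746), Ltf, the lactoferrin gene, by 0.51 (SE 0.487), and Hephl1, a ferroxidase of the hephaestin family, by 0.40 (SE 0.448). Steap1 was -0.39 without DMA 48 h replicate 1, Ltf was 0.08 without DMSO 48 h replicate 3, and Hephl1 was 0.05 without DMSO 48 h replicate 2. The genes of iron sensing and hepcidin control had 4 of 10 positive at 24 h (median -0.16) and 5 at 48 h (median -0.03). Bmp2, a ligand that raises hepcidin in liver, differed by -1.06 (SE 0.591) at 24 h and by 0.54 (SE 0.591) at 48 h, and the first value was -0.23 without DMA 24 h replicate 3. Smad4, which carries that signal to the nucleus, differed by 0.34 (SE 0.854) and -0.80 (SE 0.764), and Hfe, the haemochromatosis gene, by 0.20 (SE 0.574) and 0.58 (SE 0.574). Epas1, a hypoxia-inducible factor, differed by -0.36 (SE 0.348) at 24 h, and Bmp6, the iron-responsive ligand, by -0.53 (SE 0.829) at 48 h. With single arrays left out the sign turned for Smad4 (to -0.08 at 24 h and 0.15 at 48 h), Hfe (to -0.05 at each time) and Bmp6 (to 0.20), and Epas1 reached -0.16.

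Among iron storage and chaperone genes, 2 of 7 were positive at each time, with medians of -0.60 at 24 h and -0.04 at 48 h. Without DMA 24 h replicate 3 all 7 differences at 24 h were positive, with a median of 0.37. Over all genes tested 8844 of 17611 were then positive, with a median of 0.00. Pcbp1, an iron chaperone of ferritin, differed by -3.14 (SE 1.69) at 24 h and by 0.39 without that array, and the iron-sulphur glutaredoxin Glrx3 by -0.78 (SE 0.785) and by 0.37. Pcbp1 had a value on 2 DMA and 2 DMSO arrays of 24 h, so its 0.39 rests on 1 DMA array. Pcbp3 differed by 0.35 (SE 0.337) and Bola2 by 0.06 (SE 0.564). At 48 h Ftmt, mitochondrial ferritin, averaged 5.74 ± 0.486 on DMA and 4.56 ± 0.459 on DMSO arrays (SD, n = 3 each), with no overlap. Its difference was 1.19 (SE 0.415, adjusted p = 1), and 0.92 to 1.43 when single arrays were left out. Bola2 differed by 0.33 (SE 0.505), Ncoa4, the receptor that sends ferritin to lysosomes, by -0.12 (SE 0.913) and Pcbp3 by -0.04 (SE 0.337). With single arrays left out the sign turned for Bola2 (to -0.36 at 24 h and -0.07 at 48 h), Ncoa4 (to 0.48) and Pcbp3 at 48 h (to 0.05), and Pcbp3 at 24 h reached 0.03. In mitochondrial iron and iron-sulphur assembly, 5 of 11 were positive at 24 h (median -0.19) and 4 at 48 h (median -0.12). Nfs1, the cysteine desulphurase that supplies sulphur, differed by 1.32 (SE 0.749) at 24 h, and by 0.46 without DMSO 24 h replicate 2. The mitochondrial iron importer Slc25a37 differed by 0.31 (SE 0.452), or -0.22 without DMA 24 h replicate 3, and the assembly factors Isca2 and Isca1 by -0.85 (SE 0.571) and -0.82 (SE 0.555), which were -0.07 and -0.10 without DMA 24 h replicate 3. At 48 h the glutaredoxin Glrx5 averaged 13.4 ± 0.108 on DMA and 13.9 ± 0.111 on DMSO arrays (SD, n = 3 each), a difference of -0.43 (SE 0.438) with no overlap. The importer Slc25a28 differed by -0.55 (SE 0.414), the scaffold Iscu by 0.26 (SE 0.353) and the co-chaperone Hscb by 0.23 (SE 0.369). These came as near 0 as -0.08, 0.02 and 0.07 with 1 array left out.

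Genes of haem synthesis, breakdown and transport had 9 of 15 positive differences at 24 h (median 0.29) and 4 of 15 at 48 h (median -0.11). The synthesis enzymes Urod and Alad differed by 0.77 (SE 0.407) and 1.19 (SE 0.693) at 24 h, and by 0.36 and 0.61 without DMSO 24 h replicate 2. Cpox, a later enzyme of the same path, differed by -0.90 (SE 0.486), and Hmox1, the inducible haem oxygenase that frees iron from haem, by -0.84 (SE 0.708), or 0.14 without DMA 24 h replicate 3. At 48 h the haem exporter Flvcr1 differed by -1.01 (SE 0.523), Flvcr2 by 0.38 (SE 0.418), the biliverdin reductase Blvrb by 0.23 (SE 0.404) and the synthesis enzyme Ppox by -0.25 (SE 0.321). With 1 array left out Flvcr1 reached -0.61, Flvcr2 0.27, Blvrb 0.14 and Ppox -0.07, and Cpox at 24 h -0.52. The zinc, copper and metal response list had 7 of 15 positive at 24 h (median -0.01) and 8 at 48 h (median 0.03). Mtf1, the metal-sensing factor of the MRE, differed by 0.75 (SE 0.594) at 24 h, or 0.35 without DMSO 24 h replicate 3. At 48 h it averaged 3.98 ± 0.835 on DMA and 5.07 ± 0.0589 on DMSO arrays (SD, n = 3 each), with no overlap and a difference of -1.09 (SE 0.594), or -0.69 without DMA 48 h replicate 3. The copper chaperone Atox1 differed by -1.41 (SE 0.816) at 24 h and the zinc transporter Slc39a7 by -0.72 (SE 0.434), which were -0.13 and -0.19 without DMA 24 h replicate 3. The copper pump Atp7b differed by 0.35 (SE 0.423) at 24 h and 0.43 (SE 0.423) at 48 h, the related pump Atp7a by -0.93 (SE 0.538) at 48 h, and the metal exporter Slc30a10 by 0.71 (SE 0.744). With 1 array left out Atp7b reached -0.11 at 24 h and 0.23 at 48 h, Atp7a -0.32 and Slc30a10 0.57. All of these had a limma adjusted p of at least 0.871.

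**Figure D4:**
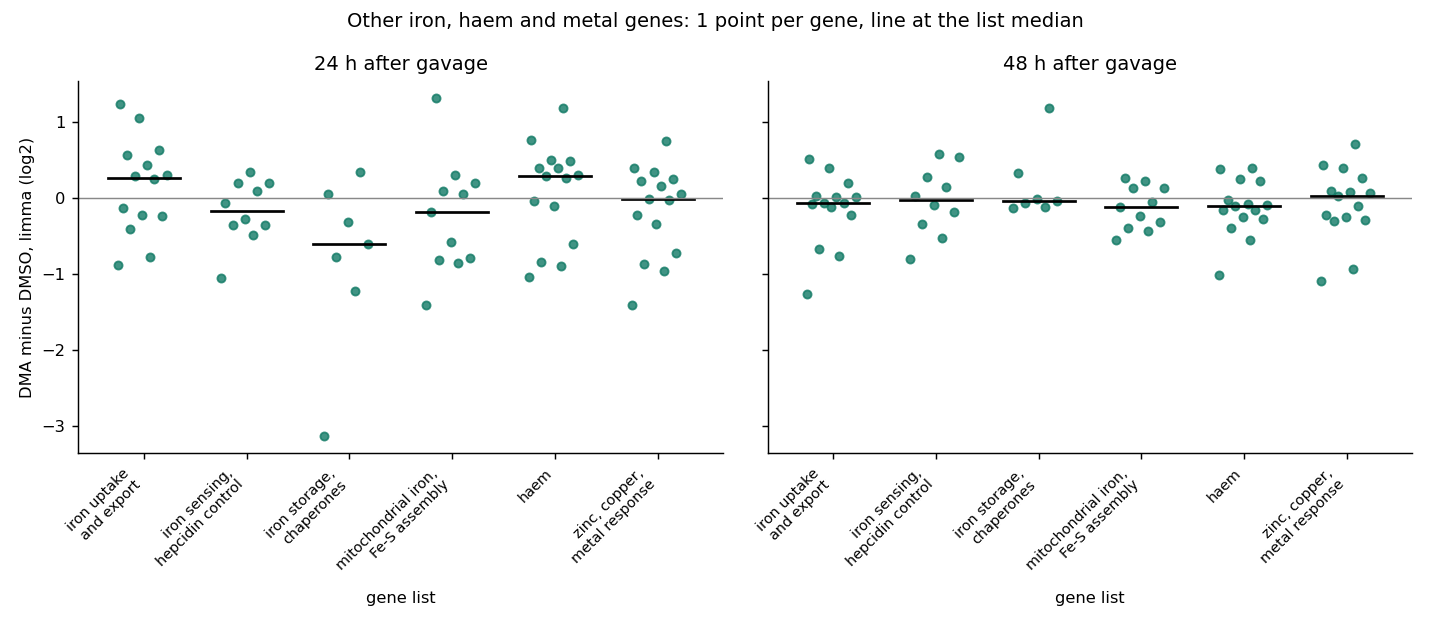
DMA minus DMSO in log2 intensity (vertical axis) from the limma fit for the 72 tested genes of 6 iron, haem and metal lists (horizontal axis); each point is a gene and the line is the list median. The lowest point is Pcbp1 at -3.14 at 24 h, and the highest at 48 h is Ftmt at 1.19.

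The precursors of red cells carry much Tfrc, haem synthesis and Alas2 transcript, so markers of erythroid cells were read beside these genes. Of 12 listed, 4 were tested (Alas2, Slc4a1, Epb42 and Klf1), and their mean level was 5.40 to 7.87 on DMA and 5.60 to 6.95 on DMSO arrays of 24 h, and 6.86 to 7.17 and 6.63 to 7.41 at 48 h. At 24 h 3 of the 4 differences were positive (median 0.62), and at 48 h 2 of 4 (median -0.15). At 48 h Alas2, the erythroid haem enzyme, differed by -0.44 (SE 0.342) and the band 3 gene Slc4a1 by -0.60 (SE 0.519), against 0.92 (SE 0.843) for Klf1 and 0.14 (SE 0.673) for Epb42. Of 8 endothelial markers, 5 had a positive difference at 24 h (median 0.64), and 7 without DMA 24 h replicate 3 (median 0.82). At 48 h 0 of 8 did (median -0.56), and 3 of 8 without DMA 48 h replicate 3 (median -0.09), while over all 17611 genes 9717 were positive at 24 h and 9048 at 48 h. The mean level of these markers was 7.02 to 8.44 on DMA and 6.88 to 8.45 on DMSO arrays of 24 h, and 7.48 to 8.82 and 8.42 to 9.15 at 48 h. For the 3 cardiomyocyte markers tested it was 8.47 to 8.87 and 7.89 to 9.19 at 24 h, and 7.74 to 9.22 and 7.82 to 9.06 at 48 h. All these marker means, erythroid and endothelial ones included, took only the markers with a value on the array. Ttn, the brightest of the 3 cardiomyocyte markers, had a value on 2 DMA and 2 DMSO arrays of 48 h. The ranges therefore also vary with missing values. The part of these cell types in the differences above was not tested.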

How the data were processed

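The deposited table held log2 intensities of 36227 probes on 12 arrays, stained with Cy5 per the labels' protocols; how the authors corrected the background, normalized the log2 values or left values out is not given in the sources used here. The platform annotation gave 1 gene symbol for 21615 probes, several for 681 and none for 13931. The RefSeq table held the gene identifiers of all 9 probes used for the set. Probes with at least 2 values in each of the 4 groups were tested, 35401 in all, and 826 were left out.

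A linear model with a term for each group was fitted to all 12 arrays (limma 3.58.1, R 4.3.3). P-values were adjusted by Benjamini-Hochberg over the 35401 probes, and 0.05 was the threshold. The fit was tested on simulated data. Alternatives were fits on the 6 arrays of a time, the replicate block, array weights, quantile normalization, removal of the trend along probe numbers, other rules for missing and lowest values, and single arrays left out. The number of arrays limits the precision. Tables and plots were made with pandas 2.3.3 and matplotlib 3.10.9 in Python 3.11.15.

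Replicate numbers were taken to pair the samples, as same-numbered DMA and DMSO arrays correlated in their deviations from the group means. The correlations were 0.105 to 0.19 at 24 h and 0.276 to 0.335 at 48 h. The labels do not explain this pairing. The main fit had no replicate term, so its SEs, intervals and p-values leave the pairing out. With the replicate block the SE of Mt2 went from 1.13 to 0.801 at both times. That of Ftl1 went from 0.632 to 0.546, and that of Slc11a2 from 0.43 to 0.345.

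All genes of the set were named, and from each other list up to 2 per direction and time with the smallest unadjusted p. The genes of the set and the lists were chosen with earlier results of these data known.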

Additional observations from a re-analysis of the deposited data

How the results depend on the processing

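Each difference of the 7 tested genes was recomputed under the alternatives, 188 values in all, and 0 passed the threshold. The direction was kept in 148 and turned in 40. Without DMA 24 h replicate 2, Mt1 at 24 h was -5.23, a value that rests on 1 DMA array. With the replicate number as a block, 0 probes passed at 24 h, at 48 h and for the difference between the times, and Slc40a1 at 24 h turned to 0.03; the replicate block changed no call. Mt1 had no value in that fit. With array weights Mt2 was 0.06 at 24 h and 0.01 at 48 h, Slc40a1 0.46 and Aco1 0.54 at 24 h, and Ftl1 0.02 and Tfrc -0.09 at 48 h. With quantile normalization of all arrays Mt1 at 48 h was -0.24, and less the trend along the probe numbers Mt1, Tfrc and Slc40a1 at 48 h were -0.07, -0.06 and -0.06. Without DMA 24 h replicate 3 and DMA 48 h replicate 3 together, a choice made after seeing the data, Mt2, Slc40a1 and Aco1 at 24 h were 0.02, 0.44 and 0.51, and Mt1, Mt2, Ftl1, Tfrc and Slc11a2 at 48 h were -0.07, 0.22, 0.19, -0.16 and 0.00. In that fit 3 probes passed at 48 h with DMA lower (Polr3k, Tmem108 and Usp42, named only from this result) and 0 at 24 h. The cause of these turns was not tested.

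Leaving out single arrays of the same time, differences at 24 h ranged from -5.23 to -0.12 for Mt1, -2.30 to 0.02 for Mt2, 0.85 to 2.14 for Ftl1, -0.29 to 0.24 for Tfrc, -0.86 to 0.44 for Slc40a1, 0.19 to 0.48 for Slc11a2 and -0.51 to 0.51 for Aco1. At 48 h they ranged from -0.09 to 0.41 for Mt1, -1.19 to 0.33 for Mt2, -0.72 to 0.19 for Ftl1, -0.21 to 0.57 for Tfrc, -0.16 to 0.41 for Slc40a1, -0.70 to 0.00 for Slc11a2 and -0.35 to -0.03 for Aco1. The counts of probes that passed ranged from 0 to 14 at 24 h, from 0 to 1 at 48 h and from 0 to 4 for the difference between the times, and 0 of the calls was a gene of the set. At 24 h there were 9 calls without the array DMA 24 h replicate 1, and 14, Pcbp1 among them, once DMA 24 h replicate 2 was left out. Pcbp1 then had a value on only 1 DMA array of 24 h. So did Mt1 and Slc40a1, and both ends of their 24 h ranges above rest on 1 DMA array. The same 2 omissions gave 4 calls (Calcoco1, D5Ertd579e and 2 probes with no gene name) and 1 (Dcaf5) for the difference between the times. At 48 h there was 1 without DMA 48 h replicate 1 (an unnamed probe), and 1 (Wdr7) with DMSO 48 h replicate 2 omitted. These genes were named after their values were seen. With fits on the 6 arrays of a time, with values at the lowest of their array left out and with probes complete on all arrays, 0 probes passed in either time. No gene of the set had a second probe of its own, so a mean over probes was not run.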

Other observations

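The genes most like Mt2 over the 12 arrays, by Pearson correlation of deviations from the mean of each time among 12356 genes with a value on every array, were Pdrg1 (r = 0.975, Spearman 0.902), 1700001L05Rik (r = 0.975, Spearman 0.923) and Wdpcp (r = 0.973, Spearman 0.930). Without DMA 24 h replicate 3, r was 0.942, 0.963 and 0.942. The genes most like Tfrc were Enox1 (r = 0.966), Ifi27 (r = 0.958) and Aqp4 (r = 0.958), with r of 0.963, 0.964 and 0.953 without that array. These are the highest of many correlations on the same 12 arrays, which share their array and replicate effects, and are given as a description. Mt1 had values on 9 arrays and was not ranked, since at least 10 were required.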
